A study of Mus musculus with 10 samples.

Results

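The genes described here are 36 mouse genes that handle long-chain fatty acids in skeletal muscle, from uptake at the cell surface through storage in lipid droplets to oxidation in mitochondria, with the uncoupling proteins and the peroxisome proliferator-activated receptors (PPARs) that belong to the same pathway. They were chosen by name from the 54232 genes of the deposited table, and all 36 were found there. RNA was sequenced from the gastrocnemius muscle of 5 desmin knock-out mice (genotype Des -/-, strain B6J.129Sv-Destm1Cba/Cscl, a germline knock-out carried by every cell of the animal) and 5 wild-type littermates (Des wt/wt), at 3 months of age. The table gives each mouse its own column, although the study's methods also speak of pooled RNA, and other passages of the study name the plantaris together with the gastrocnemius. Desmin is the main intermediate filament of muscle fibers and ties myofibrils, mitochondria and the cell membrane together. The values are regularized logarithms (rlog), a log2 scale in which each gene's values are corrected for library size and drawn towards that gene's mean, so that a difference of 1 is a 2-fold difference, and differences of weakly expressed genes are understated. Read totals cannot be recovered from rlog values, so the sequencing depth behind each value is unknown here.

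Fatty acids enter a muscle fiber after lipoprotein lipase has released them from circulating triglycerides, are bound by carrier proteins and activated to acyl-CoA, and are then either esterified and stored in lipid droplets or passed into mitochondria by the carnitine shuttle. Malonyl-CoA, made and removed at the mitochondrial surface, restrains that shuttle, and inside the mitochondrion the beta-oxidation spiral cuts acyl-CoA to acetyl-CoA while handing electrons to the respiratory chain. PPAR alpha and PPAR delta, which bind DNA together with a retinoid X receptor (RXR), are fatty acid sensors that drive many of these genes during fasting and endurance exercise, and slow, oxidative fibers use the pathway more than fast, glycolytic ones.

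The labels held for the targeted gene and the tissue. The rlog value of Des was between 16.10 and 17.74 in the wild-type and between 11.76 and 11.89 in the knock-out mice, a difference of -4.73 (SE 0.25, limma adjusted p = 1.5e-07, n = 5 and 5). Muscle fiber transcripts such as Acta1 and Ckm were above 19 in every mouse. Wild-type mouse 3 stood apart: it had the highest value of all 10 mice for 14 of the 36 genes and the lowest for 6, and it lay more than 0.5 from the mean of the other 4 wild-type mice for 13 genes, against 1 to 3 genes for each other wild-type mouse. Results are therefore also given without it where they differ. Across all 14289 genes tested (mean rlog value of at least log2 of 10), limma called 1956 (13.7%) at an adjusted p under 0.05, 1100 (7.70%) higher and 856 (5.99%) lower in the knock-out. Markers of other cell types were read from the same table. Of 8 endothelial markers 5 were lower, among them Vwf (-0.62, limma adjusted p = 0.0062) and Cdh5 (-0.52, limma adjusted p = 0.0080), and their summed level was 12.08 to 12.45 in the knock-out and 12.45 to 12.81 in the wild-type mice. Of 7 fibroblast markers 4 were higher, among them Col1a2 (0.64, limma adjusted p = 0.0079) and Lum (0.99, limma adjusted p = 0.0091), with summed levels of 13.90 to 14.50 against 13.45 to 14.39. Of 5 erythroid markers Alas2 (-1.0) and Hbb-bs (-0.74) were lower, and none of 8 adipocyte, 9 macrophage or 6 Schwann cell markers was called in this fit. Of the fiber-type markers, slow Tnnt1 (1.70) and Tnni1 (0.91) were higher and Myl3 (-1.0) was lower, while 3 of 10 fast-fiber markers were lower, led by Mybpc2 (-1.05) and Actn3 (-0.97). Of 10 general fiber markers 2 were higher, Tnnt1 and Myh2 (0.77), and 1 was lower, and none of 4 Y-linked transcripts was called by limma. In a whole-muscle sample, fewer cells of a type and less RNA per cell cannot be told apart, and the part of these marker shifts in the results that follow was not tested.

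All 36 genes passed the limit on low values, and 4 of them (11.1%) were called by limma at an adjusted p under 0.05, against 13.7% of all tested genes. Ppard, Plin5 and Eci1 were lower in the knock-out mice and Ucp2 was higher. These genes make the fatty acid receptor PPAR delta, the lipid droplet coat protein perilipin 5, the delta(3),delta(2)-enoyl-CoA isomerase of mitochondria and an uncoupling protein of the inner mitochondrial membrane. The remaining 32 were not called, although 13 of the 36 had an unadjusted p under 0.05. The group mean was lower in the knock-out for 25 genes and higher for 11, and the median difference was -0.087 against -0.0029 over all tested genes. The sizes were small as a rule. The median absolute difference was 0.12 (0.17 over all tested genes), and 3 genes differed by more than 0.5. The 95% interval of the difference lay within 1 of zero, a 2-fold change either way, for 34 of the 36 genes (93.8% of all tested genes), Plin5 and Ppara being the exceptions, and within 0.5 for 22 (54.9% of all tested genes). Without wild-type mouse 3 the same 4 genes were called, where limma called 17.4% of all genes (9.34% higher and 8.11% lower).

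**Figure D1:**
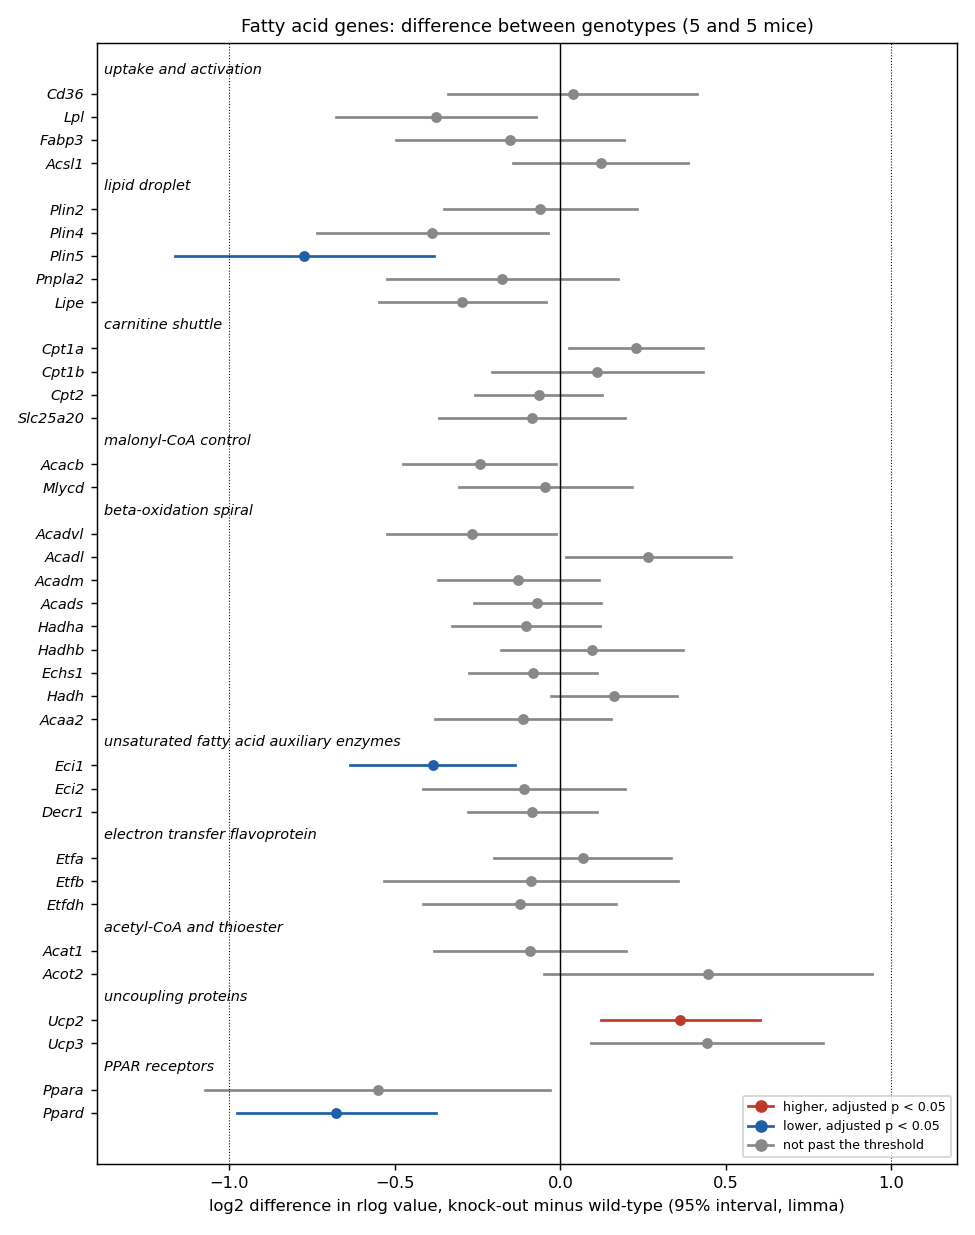
Difference in rlog value (knock-out minus wild-type, log2 scale) of each of the 36 fatty acid genes, grouped by role, as points with 95% limma intervals from 5 and 5 mice. Blue marks the 3 genes lower and red the 1 gene higher at an adjusted p under 0.05, grey marks the 32 others, and dotted lines mark a 2-fold change, which only the intervals of Plin5 and Ppara reach.

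The upstream sequences of the 4 called genes are shown so that their start regions can be read beside the values, since the PPAR-RXR pair binds direct repeats of the half-site AGGTCA. Each is the stretch just before the first RefSeq start of the gene (assembly GRCm38.p6), written 5′ to 3′ on the strand of the gene, with the half-site in capitals. Ppard lies on the plus strand (chr17:28232504-28232753), Plin5 on the minus strand (chr17:56117549-56117798), Eci1 on the plus strand (chr17:24426433-24426682) and Ucp2 on the plus strand (chr7:100493108-100493357).
Ppard: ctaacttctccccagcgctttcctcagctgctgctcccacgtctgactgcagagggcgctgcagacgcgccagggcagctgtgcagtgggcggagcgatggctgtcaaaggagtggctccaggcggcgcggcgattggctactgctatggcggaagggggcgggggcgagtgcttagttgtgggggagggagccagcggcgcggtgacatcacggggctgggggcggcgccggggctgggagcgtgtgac
Plin5: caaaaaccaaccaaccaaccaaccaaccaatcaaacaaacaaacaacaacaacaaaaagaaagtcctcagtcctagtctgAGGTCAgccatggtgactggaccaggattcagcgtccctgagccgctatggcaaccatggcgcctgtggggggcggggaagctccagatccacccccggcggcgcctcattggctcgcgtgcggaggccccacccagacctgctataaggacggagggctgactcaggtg
Eci1: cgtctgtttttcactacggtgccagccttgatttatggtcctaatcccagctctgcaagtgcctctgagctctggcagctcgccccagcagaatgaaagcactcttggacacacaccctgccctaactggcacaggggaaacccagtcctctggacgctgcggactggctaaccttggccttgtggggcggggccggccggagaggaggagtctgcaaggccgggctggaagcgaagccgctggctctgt
Ucp2: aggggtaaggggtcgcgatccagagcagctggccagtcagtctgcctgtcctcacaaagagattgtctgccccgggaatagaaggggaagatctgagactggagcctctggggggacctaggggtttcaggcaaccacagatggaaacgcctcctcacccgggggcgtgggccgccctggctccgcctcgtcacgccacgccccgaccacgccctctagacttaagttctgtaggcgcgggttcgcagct
Of these, the Plin5 stretch alone held a half-site, which began 170 bases before the start. In RefSeq windows reaching from 250 bases before to 50 bases after each start, searched on both strands, 9 of the 31 fatty acid genes with a window held AGGTCA (Acacb, Acadm, Acadvl, Cd36, Cpt1a, Echs1, Plin2, Plin5 and Ucp3), as did 18.1% of the 27018 genes of the table. The direct repeat with 1 base between, AGGTCANAGGTCA, was in none of the 31 and in 0.0481% of all genes. The motif TCAAGGTCA, which estrogen-related receptors bind and which contains the half-site, was in none of the 31 and in 0.466% of all genes. No window was listed for Lpl, Cpt1b, Acaa2, Decr1 or Acat1.

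Of the 2 PPAR genes, Ppard was lower and Ppara was not called. Ppard (ENSMUSG00000002250, chromosome 17, GRCm38) had rlog values of 9.62, 9.72, 10.28, 9.69 and 9.61 in wild-type mice 1 to 5 and of 8.79, 9.28, 9.05, 9.22 and 9.21 in knock-out mice 1 to 5. Every knock-out mouse was below every wild-type mouse, as at 6.97% of all tested genes, and wild-type mouse 3 was the highest of all. The difference was -0.68 (SE 0.14, limma adjusted p = 0.0055), that is 0.625 of the wild-type level, and the exact permutation test of the 10 values gave the smallest p that 5 against 5 mice allow (two-sided p = 0.0079). Without wild-type mouse 3 the difference was -0.55 (limma adjusted p = 0.0017). Ppara, the receptor for fatty acids that is best known from liver and heart, had a lower wild-type level per length (rlog value minus log2 of the exonic length in kilobases) than Ppard, 5.83 against 6.88. Its rlog difference had nearly the size of that of Ppard, -0.55, with a wider spread (SE 0.24, limma adjusted p = 0.16). Its values ran from 7.07 to 8.37 in the wild-type and from 6.87 to 8.01 in the knock-out mice, and knock-out mice 1 and 3 lay inside the wild-type range while the other 3 lay below it. The 2 differences could not be told apart: the within-mouse contrast between Ppara and Ppard was 0.13 higher in the knock-out mice (exact permutation p = 0.73).

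**Figure D2:**
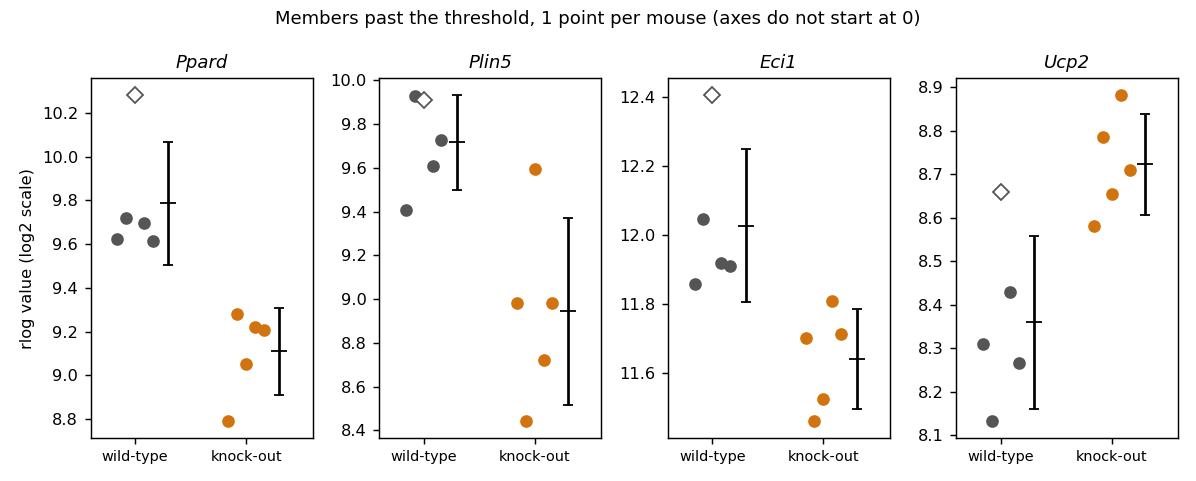
rlog value (log2 scale, axes not starting at 0) of Ppard, Plin5, Eci1 and Ucp2 in each mouse, grey for wild-type and orange for knock-out, with bars for the mean ± SD of 5 mice and an open diamond for wild-type mouse 3. The groups do not overlap for Ppard and Eci1, whereas knock-out mouse 3 overlaps the wild-type range for Plin5 and wild-type mouse 3 overlaps the knock-out range for Ucp2.

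Of the 5 lipid droplet genes, 1 was lower and 4 were not called, and all 5 means were lower in the knock-out (median difference -0.30). Plin5 (ENSMUSG00000011305, chromosome 17), which coats droplets that touch mitochondria, had rlog values of 9.41, 9.93, 9.91, 9.61 and 9.73 in the wild-type and of 8.98, 8.44, 9.59, 8.72 and 8.98 in the knock-out mice. Knock-out mouse 3 lay inside the wild-type range and the other 4 knock-out mice lay below it. The difference was -0.77 (SE 0.18, limma adjusted p = 0.012), or 0.585 of the wild-type level, the furthest from zero among the 36 genes. Plin4, the neighbouring gene on the chromosome and the coat protein of droplets in fat and muscle, had 12.85, 13.04, 12.62, 13.09 and 13.10 in the wild-type and 12.49, 12.13, 13.14, 12.56 and 12.46 in the knock-out mice (difference -0.39, SE 0.16, limma adjusted p = 0.14). Here too knock-out mouse 3 departed from its group, being the highest of all 10 mice, and with it left out limma called Plin4, Plin5, Ppara and Ppard lower and no gene higher. Plin2, the droplet coat protein found in most cell types, had 10.07, 10.32, 10.77, 9.93 and 10.15 in the wild-type and 10.22, 10.30, 10.15, 10.18 and 10.09 in the knock-out mice, and its difference was -0.06 (SE 0.14). Its knock-out values all lay within the wild-type range.

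The lipases that empty the droplet were not called. Pnpla2, which takes the first fatty acid from a triglyceride, differed by -0.18 (SE 0.16, limma adjusted p = 0.52), and Lipe, the hormone-sensitive lipase that takes the next, by -0.30 (SE 0.12, limma adjusted p = 0.11). Lipe is also an adipocyte marker. The summed level of the 9 adipocyte markers listed, Lipe among them, was 10.75 to 11.70 in the knock-out and 10.74 to 11.69 in the wild-type mice. These ranges overlapped almost entirely. Because the members of a pair share each mouse's scaling, 10 pairs of partner genes were also compared within the mouse. Plin2 relative to Plin5 was 0.71 higher in the knock-out mice (exact permutation p = 0.024) and Plin4 relative to Plin5 was 0.39 higher (exact permutation p = 0.016), each with 4 of 5 knock-out mice above all wild-type mice. Adjusted over the 10 pairs both exact p-values were 0.079 (Benjamini-Hochberg), so neither passed.

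None of the 4 genes of uptake and activation was called, and their median difference was -0.06. Lpl, the lipase that releases fatty acids from lipoproteins, had rlog values of 14.19 to 15.00 in the wild-type and of 14.03 to 14.37 in the knock-out mice (difference -0.38, SE 0.14, limma adjusted p = 0.098). The groups overlapped, with 2 knock-out mice below all wild-type mice. Cd36, the membrane fatty acid transporter, differed by 0.04 (95% interval -0.34 to 0.41), Fabp3, the cytosolic fatty acid binding protein of muscle, by -0.15 (-0.50 to 0.19), and Acsl1, the acyl-CoA synthetase of muscle, by 0.12 (-0.14 to 0.39). These intervals leave room for changes of less than 1.5-fold in either direction.

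The carnitine shuttle was likewise without a call among its 4 genes (median difference 0.02). Cpt1a, the liver-type carnitine palmitoyltransferase of the outer mitochondrial membrane, had the narrowest wild-type group of the 36 genes: 7.77, 7.80, 7.78, 7.67 and 7.85 in the wild-type and 8.13, 7.87, 7.89, 8.08 and 8.03 in the knock-out mice. Every knock-out mouse was above every wild-type mouse, which held for 7.45% of all tested genes, but the difference was 0.23 (SE 0.09) and did not pass (limma adjusted p = 0.13). Cpt1b, the muscle-type enzyme, had mean rlog values of 6.18 in the wild-type and 6.29 in the knock-out mice (difference 0.11, SE 0.15). That level is uncertain, because 81.4% of the exonic bases of Cpt1b are shared on the same strand with the readthrough gene Gm44502, which is listed at 0 in every mouse, and how reads in shared exons were treated is not stated. Cpt2, the inner-membrane partner, differed by -0.06 (SE 0.09), and Slc25a20, the carnitine-acylcarnitine carrier, by -0.09 (SE 0.13).

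Of the enzymes that set the malonyl-CoA level, Acacb and Mlycd were not called. Acaca, the acetyl-CoA carboxylase listed with the further genes of synthesis and esterification, was higher (0.39, limma adjusted p = 0.044). That call was lost in 10 of 18 alternative analyses. Acacb, the acetyl-CoA carboxylase that makes malonyl-CoA at the mitochondrial surface, had 13.24, 13.48, 13.70, 13.37 and 13.31 in the wild-type and 13.17, 13.17, 13.39, 13.05 and 13.10 in the knock-out mice (difference -0.24, SE 0.11, limma adjusted p = 0.16). Mlycd, the decarboxylase that removes malonyl-CoA, had 11.83, 11.92, 12.38, 11.97 and 11.62 in the wild-type and 11.85, 11.84, 12.00, 11.88 and 11.93 in the knock-out mice (difference -0.05, SE 0.12). For Acacb 4 of 5 knock-out mice were below all wild-type mice, and for Mlycd the knock-out values lay within the wild-type range. Within the mouse, Acacb relative to Mlycd was lower by 0.20 in the knock-out (difference -0.20, exact permutation p = 0.024), and adjusted over the 10 pairs the exact p was 0.079.

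**Figure D3:**
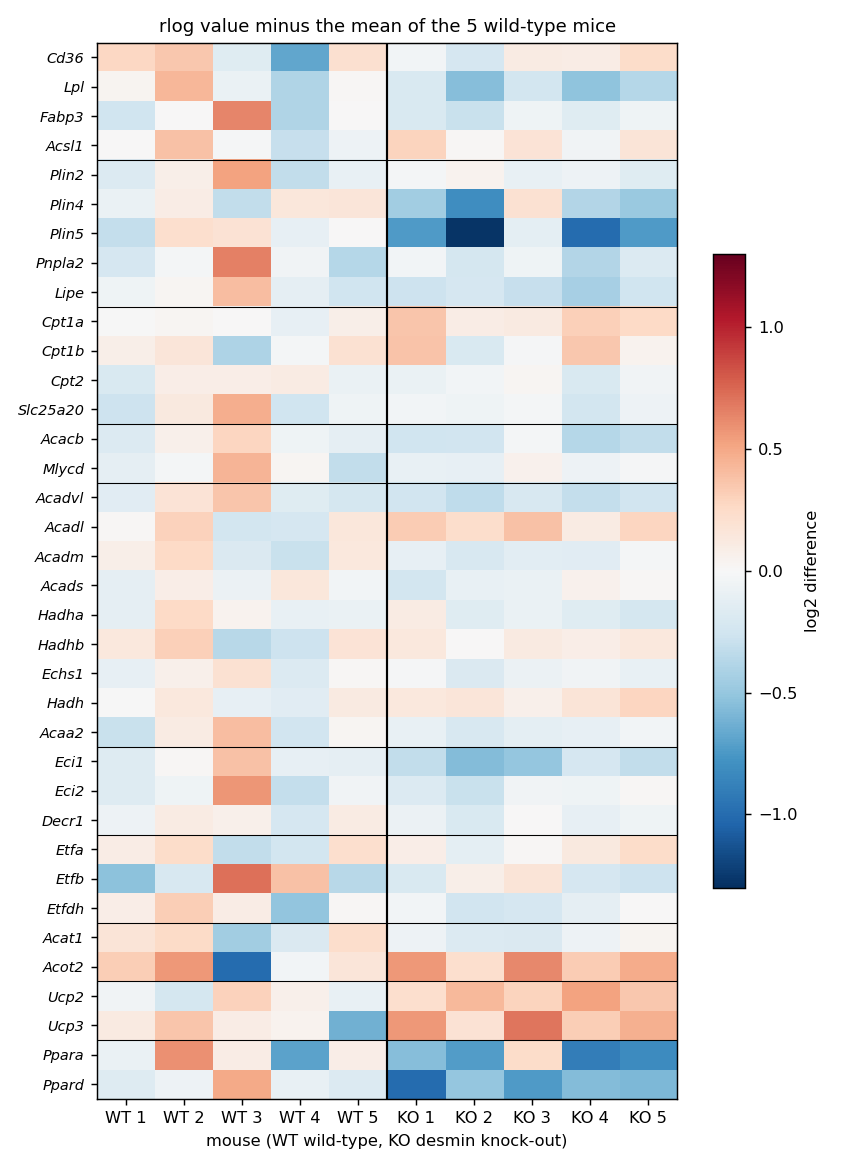
rlog value of each of the 36 genes in each of the 10 mice minus the mean of the 5 wild-type mice (log2 colour scale, red higher and blue lower, horizontal lines between roles). The column of wild-type mouse 3 departs from the other 4 wild-type columns in both directions, and the rows of Plin5 and Ppard are blue across the knock-out columns, least so for Plin5 in knock-out mouse 3.

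Within mitochondria, none of the 9 genes of the beta-oxidation spiral was called. Their differences ran from -0.27 to 0.27 with a median of -0.08, all 9 intervals lay within 1 of zero and 7 of them within 0.5. The acyl-CoA dehydrogenases, which open each round for chains of a given length, did not share a direction. Acadvl, for very long chains, differed by -0.27 (SE 0.12, limma adjusted p = 0.16), Acadl, for long chains, by 0.27 (SE 0.12, limma adjusted p = 0.15), Acadm, for medium chains, by -0.13 (SE 0.11) and Acads, for short chains, by -0.07 (SE 0.09). For Acadvl, 42.9% of the exonic bases lie opposite exons of Dvl2 on the other strand, and the strand setting of the counting is not stated, but Dvl2 itself was at 7.20 and 7.21 in the 2 groups. Hadha and Hadhb, which together make the trifunctional protein, differed by -0.10 (SE 0.10) and 0.10 (SE 0.13), and their within-mouse contrast by -0.20 (exact permutation p = 0.21). The hydratase Echs1 differed by -0.08 (SE 0.09), the dehydrogenase Hadh by 0.16 (SE 0.09, limma adjusted p = 0.26) and the thiolase Acaa2 by -0.11 (SE 0.12).

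Of the 3 enzymes that prepare unsaturated fatty acids for the spiral, Eci1 was lower and Eci2 and Decr1 were not called. Eci1 (ENSMUSG00000024132, chromosome 17), which moves the double bond of an enoyl-CoA to where the spiral can use it, had 11.86, 12.05, 12.41, 11.92 and 11.91 in the wild-type and 11.70, 11.46, 11.53, 11.81 and 11.71 in the knock-out mice. The groups did not overlap, as for 6.97% of all tested genes in this direction. Knock-out mouse 4 and wild-type mouse 1 were only 0.05 apart. The difference was -0.39 (SE 0.12, limma adjusted p = 0.042), or 0.765 of the wild-type level. Without wild-type mouse 3 the difference of Eci1 was -0.29 (limma adjusted p = 0.025). Its call passed narrowly and was lost in 10 of 18 alternative analyses. Eci2, a second isomerase found in mitochondria and peroxisomes, differed by -0.11 (SE 0.14), and Decr1, the dienoyl-CoA reductase, by -0.08 (SE 0.09). Ppard, Eci1, Plin5 and Plin4 all lie on chromosome 17, where 5.78% of 675 tested genes were called lower, against 6.0% on the other chromosomes.

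The electron transfer flavoprotein, which passes electrons from the dehydrogenases to ubiquinone, was not called in any of its 3 genes. Etfa differed by 0.07 (SE 0.12), Etfb by -0.09 (SE 0.21) and Etfdh, the oxidoreductase that receives the electrons, by -0.12 (SE 0.13). Etfb shares 53.0% of its exonic bases with Gm45233, listed at 0 in every mouse, and was 0.89 higher in wild-type mouse 3 than in the mean of the other wild-type mice. Acat1, the acetoacetyl-CoA thiolase of mitochondria, differed by -0.09 (SE 0.13). Acot2, which splits long acyl-CoA inside mitochondria, differed by 0.45 (SE 0.23, limma adjusted p = 0.23). Without wild-type mouse 3 the difference of Acot2 was 0.19 (limma adjusted p = 0.34). Its wild-type values ran from 7.17 in mouse 3, the lowest of all 10 mice, to 8.75, and its knock-out values from 8.40 to 8.81, and its near-identical paralog Acot1 could exchange reads with it. As a transcript reference, 15 nuclear genes for other mitochondrial proteins were read (among them citrate synthase, import, channel, carrier, chaperone and mitochondrial transcription genes). Of these 1 was called, the import gene Timm23 (-0.50, limma adjusted p = 0.045), and the median difference of the 15 was -0.12. Mitochondrial content itself was not measured.

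Both uncoupling proteins had higher means in the knock-out mice, and 1 of the 2 was called. Ucp2 (ENSMUSG00000033685, chromosome 7), found in many cell types including macrophages, had 8.31, 8.13, 8.66, 8.43 and 8.27 in the wild-type and 8.58, 8.79, 8.65, 8.88 and 8.71 in the knock-out mice. Wild-type mouse 3 reached the knock-out range, and 3 of 5 knock-out mice were above all wild-type mice. The difference was 0.36 (SE 0.11, limma adjusted p = 0.046), a fold of 1.29, and without wild-type mouse 3 it was 0.44 (limma adjusted p = 0.0050). This call was lost in 13 of 18 alternative analyses. The summed level of the 9 macrophage markers was 11.27 to 11.73 in the knock-out and 11.23 to 11.63 in the wild-type mice, and none of them was called by limma. Ucp3, the uncoupling protein of muscle and the neighbour of Ucp2 on the chromosome, had the higher wild-type level per length, 10.98 against 5.56. Its rlog values were 12.74, 12.99, 12.73, 12.68 and 12.01 in the wild-type and 13.20, 12.81, 13.33, 12.94 and 13.09 in the knock-out mice. The difference was 0.44 (SE 0.16) and did not pass (limma adjusted p = 0.091). Wild-type mouse 5 was lowest and knock-out mice 2 and 4 lay within the wild-type range.

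The wild-type values were more scattered than the knock-out values. The SD of the wild-type mice was the larger for 31 of the 36 genes (82.9% of all tested genes), and without wild-type mouse 3 for 29 of them (68.4% of all tested genes). Plin4, Plin5, Cpt1a, Cpt1b and Acads were the 5 genes with the larger SD in the knock-out. Among the 36 genes, the wild-type level per length was highest for Fabp3 (13.86) and Acadvl (12.64) and lowest for Cpt1b (4.43) and Cpt1a (4.84). The place of Cpt1b is uncertain, because 81.4% of its exonic bases are shared with Gm44502.

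Outside these 36 genes, 97 further genes of the pathway were listed by role. Of these 95 were tested, and 8 were higher and 11 lower (20% called, against 13.7% of all tested genes). All lists were chosen with earlier results of these data known, so this share is a description and not a test. Leaving out 1 mouse at a time moved these counts to between 4 and 11 higher and between 5 and 13 lower. None of 14 further uptake and activation genes was called. Of 12 further lipid droplet genes, Plin3, a perilipin that moves between cytosol and droplet, was lower (-0.40, limma adjusted p = 0.026). Of 5 tested genes listed under carnitine supply, the transporter Slc22a4 was higher (0.64, limma adjusted p = 0.015) and the mitochondrial carrier Slc25a29 lower (-0.56, limma adjusted p = 0.024). Of 14 further mitochondrial oxidation genes, the thioesterase Acot9 was higher (0.60, limma adjusted p = 0.0041), and the dehydrogenases Acad11 (-0.53, limma adjusted p = 0.0036) and Acad9 (-0.32, limma adjusted p = 0.038) were lower, Acad9 losing its call in 10 of 18 alternative analyses. Of 16 peroxisomal genes, Crot, which makes carnitine esters for export from the peroxisome, was lower (-0.48, limma adjusted p = 0.0092) and the reductase Decr2 higher (0.46, limma adjusted p = 0.033). The calls of Decr2, Plin3 and Slc25a29 were lost in 9, 7 and 4 of 18 alternative analyses.

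Of 21 genes of fatty acid synthesis and esterification, 3 were higher and 2 lower. Lpin1, the phosphatidate phosphatase that is also a coactivator of PPAR alpha, had 13.53, 13.74, 13.66, 13.71 and 13.33 in the wild-type and 13.12, 12.89, 13.06, 12.87 and 12.81 in the knock-out mice. Every knock-out mouse was below every wild-type mouse, as at 6.97% of all tested genes (difference -0.64, SE 0.10, limma adjusted p = 0.0010). Its relative Lpin3 was higher (0.39, limma adjusted p = 0.029), as was the glycerol phosphate acyltransferase Gpat3 (0.51, limma adjusted p = 0.035). The call of Lpin3 was lost in 8 and that of Gpat3 in 9 of 18 alternative analyses.

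**Figure D4:**
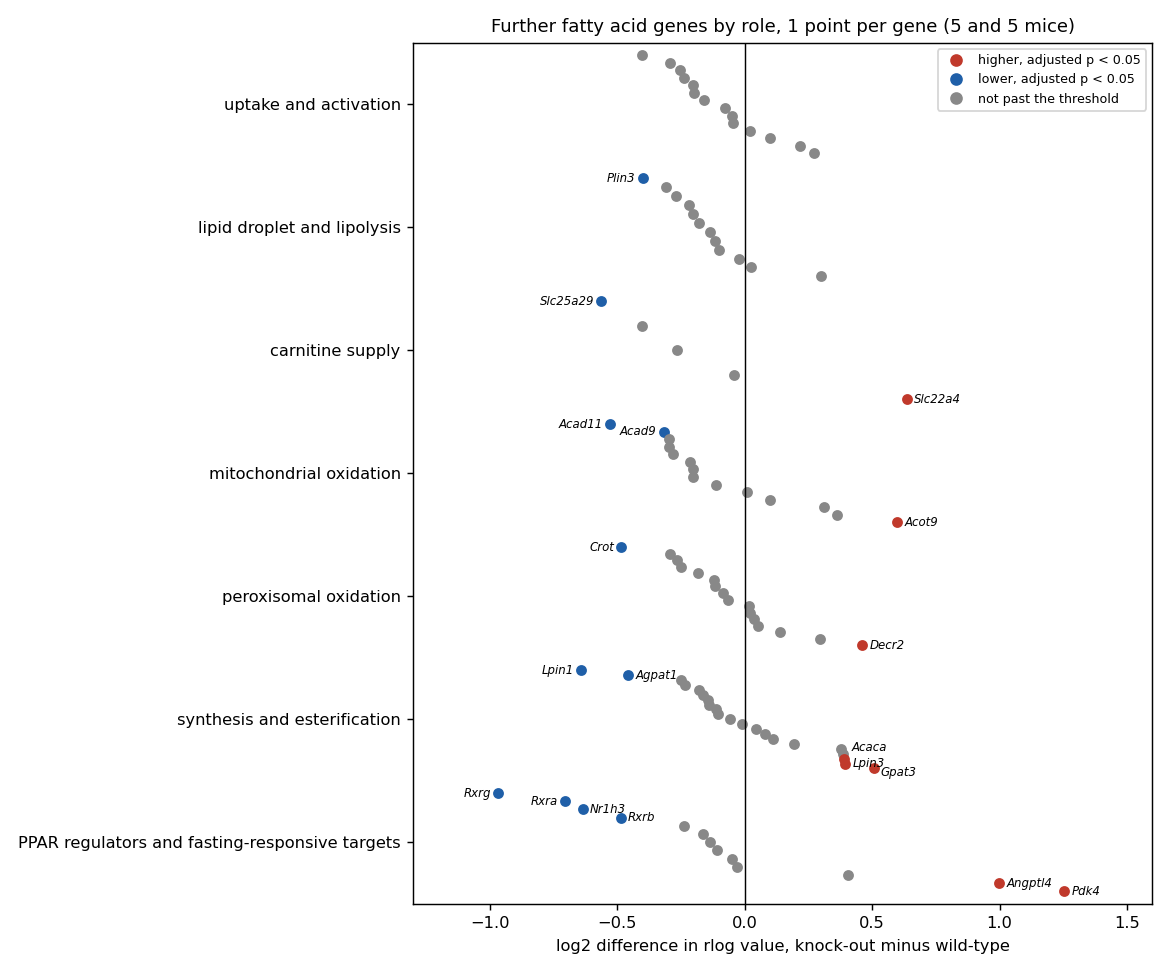
Difference in rlog value (knock-out minus wild-type, log2 scale) of the 95 further fatty acid genes tested, 1 point per gene from 5 and 5 mice, in 7 roles, with red for 8 genes higher and blue for 11 lower at a limma adjusted p under 0.05. The outermost points belong to the PPAR regulators and fasting-responsive targets, with Rxrg at -0.97 and Pdk4 at 1.25.

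The 13 PPAR regulators and fasting-responsive targets held 2 higher and 4 lower genes, 46.2% of them against 13.7% of all tested genes. That list too was chosen with earlier results of these data known, so its share is no test of the list. Rxrg, the RXR partner enriched in muscle, had 11.50, 11.43, 12.29, 11.92 and 11.40 in the wild-type and 10.64, 10.81, 10.63, 10.80 and 10.82 in the knock-out mice. The groups did not overlap (difference -0.97, SE 0.15, limma adjusted p = 8.9e-04). Its paralogs Rxra and Rxrb, and the oxysterol receptor Nr1h3, another RXR partner, are named after their values were seen. Rxra was at 12.40 to 13.33 in the wild-type and at 11.86 to 12.04 in the knock-out mice (difference -0.70, SE 0.15, limma adjusted p = 0.0076). Rxrb was at 10.56 to 11.26 and at 10.18 to 10.35 (difference -0.49, SE 0.12, limma adjusted p = 0.018). All 3 RXR genes were thus lower without overlap, which held for 6.97% of all tested genes. Wild-type mouse 3 was the highest for each of the 3. Without that mouse the differences were -0.82, -0.53 and -0.37 for Rxrg, Rxra and Rxrb (limma adjusted p = 1.1e-04, 9.3e-05 and 0.0027). Nr1h3 differed by -0.64 (SE 0.20, limma adjusted p = 0.049), a call that was lost in 10 of 18 alternative analyses.

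Pdk4 and Angptl4, transcripts that PPARs are known to induce during fasting, moved the other way from the RXR genes. Of the 36 genes, many of which PPARs drive, 11 had a higher and 25 a lower mean in the knock-out (median difference -0.087). Pdk4, the kinase that shuts off pyruvate dehydrogenase and so spares glucose, had 15.24, 15.15, 14.23, 14.20 and 14.62 in the wild-type and 16.03, 15.51, 16.31, 15.85 and 16.01 in the knock-out mice. Every knock-out mouse was above every wild-type mouse, which held for 7.45% of all tested genes. The difference was 1.25 (SE 0.22, limma adjusted p = 0.0016), a fold of 2.38. Angptl4, a secreted inhibitor of lipoprotein lipase, had 7.81, 7.81, 7.81, 7.48 and 6.81 in the wild-type and 8.80, 8.19, 8.08, 8.77 and 8.86 in the knock-out mice. Again the groups did not overlap (difference 1.0, SE 0.21, limma adjusted p = 0.0070), and the fold was 2.0. Ucp3 and Cpt1a, which belong to the 36 genes and are also known PPAR targets, had higher means in the same mice without passing the threshold, whereas Plin5 was lower.

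**Figure D5:**
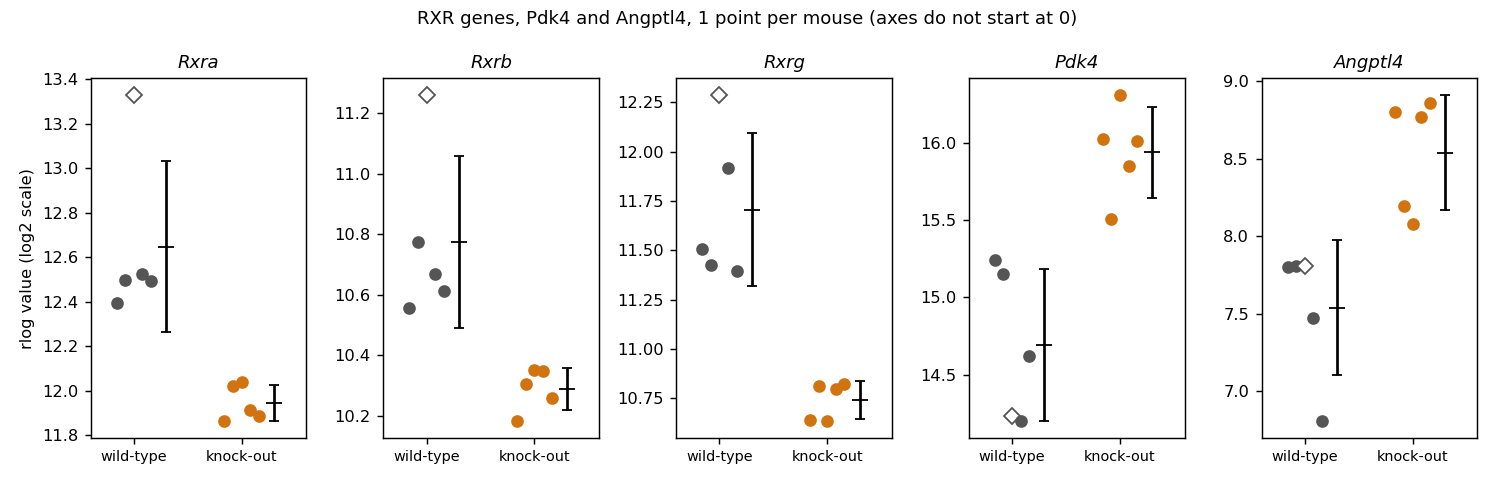
rlog value (log2 scale, axes not starting at 0) of Rxra, Rxrb, Rxrg, Pdk4 and Angptl4 in each mouse, grey for wild-type and orange for knock-out, with bars for the mean ± SD of 5 mice and an open diamond for wild-type mouse 3. No panel shows an overlap: orange points lie below all grey ones for the 3 RXR genes and above them for Pdk4 and Angptl4.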

How the data were processed

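Stranded mRNA libraries had been made from the gastrocnemius of 5 mice per genotype. Per the submitters' processing notes, the authors used cutadapt 2.5, STAR 2.5.4a and featureCounts of Subread 1.6.1 on GRCm38, followed by DESeq2. The deposited values are rlog values on a log2 scale, 1 column per mouse. The strand and rlog settings are not given in the sources used here, and counts were not analysed here. Since rlog draws values towards each gene's mean, differences of low genes are understated.

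Gene identifiers were matched to GENCODE M21 symbols (54079 of 54232), and 26079 genes were at 0 in all mice. The 14289 genes whose mean reached log2 of 10 were fitted with limma 3.58.1 (R 4.3.3; lmFit, and eBayes with a trended prior), two-sided, with Benjamini-Hochberg adjustment over all of them and a threshold of 0.05. Single values and partner-gene contrasts were tested by exact permutation over the 10 mice (scipy 1.17.1). Summed levels are log2 of the sum of a list's linear values. The fit was tested on simulated data. The 36 genes and all lists were chosen with earlier results of these data known. Named were Des and all 36 genes. Also named were the called genes of lowest adjusted p in each further role (up to 3) and up to 2 in each marker list. Values per mouse were printed for those of the 36 genes that were called or in a pair with a raw exact p under 0.05. Other genes with values per mouse, the marker Myl3 and the further gene Acaca were chosen after their values were seen. Genotype groups came from the labels, and the numbers given to the mice do not pair them. Alternatives were other limits on expression (none, or log2 of 50), median centring, a replicate block, quantile normalization, sample weights, a single prior variance, a covariate of 4 Y-linked transcripts, an adjusted p of 0.01 and leaving out each mouse. Promoter stretches came from RefSeq (GRCm38.p6), where 31 of the 36 genes matched.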

Additional observations from a re-analysis of the deposited data

Results flagged for a closer look

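In 94 groups of 5 mice (each gene's or contrast's values within a genotype), 4 held a mouse whose gap to its nearest neighbour took an unusually large part of the group's range (Dixon's test), where chance gives about 4.7. For Slc25a20, the carnitine-acylcarnitine carrier, knock-out mouse 4 was lowest at 11.37. The other 3 were all wild-type mouse 3, which was highest for Ppard at 10.28, for Des at 17.74 and for Cpt1a relative to Cpt1b, where the within-mouse difference was 2.0.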

How the results depend on the processing

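Ppard and Plin5 were called lower by limma in all 18 alternative fits (Ppard -0.72 to -0.52, Plin5 -0.94 to -0.65), whereas the call of Eci1 was lost in 10 (limma adjusted p = 0.022 to 0.12) and that of Ucp2 in 13 (limma adjusted p = 1.4e-04 to 0.13). Eci1 was lost on leaving out any knock-out mouse or wild-type mouse 2, and Ucp2 on leaving out any mouse but wild-type mouse 3. The 1 higher gene became 0 with no limit on expression, with median centring, with the replicate block and at an adjusted p of 0.01, and 2 with sample weights. The 3 lower genes became 11 with sample weights (Acacb, Acadm, Acadvl, Acat1, Eci1, Lipe, Lpl, Plin4, Plin5, Ppara, Ppard), where 29.5% of all genes were called. At an adjusted p of 0.01 they became 1, Ppard, since Plin5 did not pass there (limma adjusted p = 0.012). With quantile normalization Ucp3 was called in place of Ucp2, and with the Y-linked covariate Lpl in place of Eci1. Of the further pathway genes, 6 were lower with no limit, and 13 were higher and 24 lower with sample weights. Rxrg, Rxra, Pdk4, Angptl4, Lpin1, Acot9, Slc22a4, Acad11 and Crot were called in all 18 alternative fits, Rxrb in all but the one without knock-out mouse 1 (limma adjusted p = 0.0505), while the calls of Nr1h3, Acad9 and Acaca were lost in 10, those of Decr2 and Gpat3 in 9, Lpin3 and Agpat1 in 8, Plin3 in 7 and Slc25a29 in 4. The cause of these changes was not tested. Leaving out 1 mouse at a time gave 0 to 1 higher and 2 to 4 lower of the 36 genes, and 4 to 11 higher and 5 to 13 lower of the further genes. Without wild-type mouse 3 the same 4 genes were called. The contrast of Acacb with Mlycd was -0.16 with quantile normalization (exact permutation p = 0.10).

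Genes near zero changed sign: Cd36 (-0.0050 with median centring, -0.14 with sample weights, -0.15 with the Y-linked covariate), Mlycd (0.023 with quantile normalization, 0.042 with weights, 0.064 with the covariate), Hadhb (-0.087 and -0.056 with weights and covariate), Etfb (0.12 and 0.21), Etfa (-0.028 and -0.075), Acsl1 (-0.059) and Eci2 (0.026) with weights, and Plin2 (0.051), Slc25a20 (0.021) and Cpt1b (-0.0068) with the covariate. Leaving out 1 mouse, ranges that crossed zero were -0.13 to 0.12 for Cd36, -0.14 to 0.070 for Plin2, -0.25 to 0.0076 for Fabp3, -0.22 to 0.089 for Etfb, -0.13 to 0.064 for Mlycd, -0.012 to 0.13 for Etfa, -0.15 to 0.031 for Slc25a20 and -0.19 to 0.033 for Eci2, and among contrasts -0.23 to 0.051 for Ucp2 with Ucp3, -0.087 to 0.29 for Ppara with Ppard and -0.10 to 0.31 for Etfa with Etfb.

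Equal mouse numbers did not pair the mice (correlations of deviations -0.22 to 0.07), and the replicate block called 0 higher and 2 lower of the 36 genes. Median centring moved the median of all genes to -0.045. Read depth is unknown, so how far it limits low genes could not be assessed.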
